A study of Mus musculus with 6 samples.

Results

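Transcripts of 9 lysosomal cathepsins, Ctsa, Ctsb, Ctsc, Ctsd, Ctsh, Ctsk, Ctsl, Ctss and Ctsz, were followed through atherosclerotic brachiocephalic arteries of 6 mice. The genes were chosen by name, and all 9 were found among the 24391 genes of the deposited count table and passed the filter on low counts that 15937 genes passed. The 3 wild type mice (WT 1 to WT 3) and the 3 Col15a1-/- mice (KO 1 to KO 3) had a C57BL/6 background, and both groups ate a Western diet for 18 weeks. Their brachiocephalic arteries were flash frozen and the RNA extracted with Trizol. The labels give the tissue as lesion and its cells as a mixture of smooth muscle cells (SMC), epithelial cells, macrophages and others. The series title describes a deletion specific to smooth muscle, whereas the genotype label reads Col15a1 -/-. A Cre driver, a second allele that makes mice prone to atherosclerosis, and the age of the mice were not given in the sources used here. The comparison asked how lesions of mice labelled Col15a1 -/-, the collagen XV gene, differ from those of wild type mice.

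Cathepsins are the main proteases of the lysosome. They are made as inactive proenzymes in the endoplasmic reticulum, carried to the lysosome by mannose 6-phosphate receptors and related sorting proteins, and activated by cleavage in its acid interior. Most are cysteine proteases, Ctsd is an aspartic protease and Ctsa a serine carboxypeptidase. In atherosclerotic arteries macrophages are a major source, and secreted Ctss, Ctsk and Ctsl can cut elastin and collagen in the vessel wall, while cystatins outside the cell and stefins within it hold the cysteine cathepsins in check. The factors TFEB, TFE3 and MITF drive many lysosomal genes through a palindromic E-box, CACGTG, whose preferred form in such genes is known as the CLEAR element.

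Promoter letters were read for 7 of the 9 genes (all but Ctsb and Ctsh) from RefSeq windows on GRCm38.p6, over the 250 bases before each start (8 windows, since Ctsa has a pair). The E-box CACGTG, searched on both strands, was in the windows of 3 genes, Ctsa, Ctsd and Ctsl, against 6.02% of all 32851 windows of that length. Its flanked form TCACGTGA, which contains CACGTG, was in the windows of Ctsa and Ctsd, against 0.785% of all windows. The full CLEAR palindrome of 10 bases, which contains both, was in 0 member windows, against 0.240% of all. The sites are shown because the E-box is the known control element of this gene group. Each is given 5′ to 3′ on the gene's own strand, with the E-box or its flanked form in capitals. The first base of CACGTG lay 12 bases before the start in Ctsa (chr2:164833750-164833777, plus strand), 98 bases before it in Ctsd (chr7:142387909-142387936, minus strand), 245 bases before it at the other Ctsd site (chr7:142388050-142388077, minus strand) and 236 bases before it in Ctsl (chr13:64370740-64370767, minus strand).
Ctsa: gagcaaactgTCACGTGAtgcagatgct
Ctsd near: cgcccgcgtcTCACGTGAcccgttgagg
Ctsd far: tccccCACGTGacctgtatccagtcatt
Ctsl: gcgttagaagcCACGTGctgatctaaat

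Ctsk and Ctss are neighbours, and they are also the members with the largest fold changes given below, so their whole 250-base windows are shown. In the mm9 annotation of the count table Ctsk (chr3:95303132-95313309) and Ctss (chr3:95330708-95360327) lie on the plus strand of chromosome 3, with 17398 bases between them. In GRCm38.p6 the windows are chr3:95498960-95499209 for Ctsk and chr3:95526536-95526785 for Ctss, both on the plus strand. The capitals mark a match to TATAAA read on the other strand, in the Ctss window, 233 to 228 bases before the start. TATAAA was in 12.4% of all windows.
Ctsk: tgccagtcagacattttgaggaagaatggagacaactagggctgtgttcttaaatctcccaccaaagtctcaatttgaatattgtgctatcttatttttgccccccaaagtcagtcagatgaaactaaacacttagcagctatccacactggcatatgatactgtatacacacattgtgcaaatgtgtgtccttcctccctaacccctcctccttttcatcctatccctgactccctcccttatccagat
Ctss: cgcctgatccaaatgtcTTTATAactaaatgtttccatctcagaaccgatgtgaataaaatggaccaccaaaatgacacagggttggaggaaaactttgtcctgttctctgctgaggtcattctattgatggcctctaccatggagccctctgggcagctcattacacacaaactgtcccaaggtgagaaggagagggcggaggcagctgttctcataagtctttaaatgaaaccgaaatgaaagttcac

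Neither window held CACGTG or the AP-1 site TGANTCA, which was in 6.75% of all windows and in 0 of the 8 member windows. GGGCGG, a GC box, was in the Ctss window and in those of Ctsc, Ctsd and Ctsz, against 32.7% of all windows. GAGGAAGT, the form of the site of the myeloid factor PU.1 that was searched, was in the Ctsc window and in 2.44% of all windows. Shorter forms of this site were not searched. The Ctsk and Ctss windows had 43.2% and 44.8% G and C, against a median of 52.4% over all windows and 67.2% in Ctsd.

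Facts of the libraries bear on every value that follows. Total counts ran from 22223584 to 26982005 per library, which is 32.6% to 36.9% of the alignments. Col15a1 was lower in every library labelled KO. It ran from 407 to 574 CPM (read counts set to a common library size, with TMM scaling) over the WT libraries and from 91.0 to 198 CPM over the KO libraries, a log2 fold change of -1.62 (SE 0.33, edgeR adjusted p = 0.587, DESeq2 adjusted p = 0.00219). Transcripts that mark neurons stood apart in WT 2 and KO 3. Summed over 12 genes they reached 2671 CPM in WT 2 and 5363 CPM in KO 3, against 192 to 281 CPM in the other 4 libraries, so results are also given without these 2 libraries. Of 5 epithelial markers checked for the epithelial cells on the label, Cdh1 was the highest, at 1.47 to 8.99 CPM over the 6 libraries. Epcam stood at 0.173 to 1.57 CPM, and Krt5, Krt14 and Cldn4 ran from 0 to at most 0.873 CPM. Macrophage markers were present in all 6.

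The 9 cathepsins together made up 0.983%, 1.05% and 1.19% of all gene counts in WT 1, WT 2 and WT 3. Their share of counts was 0.863% in KO 1, 0.714% in KO 2 and 0.286% in KO 3. The groups did not overlap, and KO 3 was far below the other 2 KO libraries. Per length, the summed level was 12402 ± 1372 TPM (a library-scaled measure like CPM, but from counts divided by each gene's exon length) in WT and 7270 ± 3654 TPM in KO (SD, n = 3 each). The spread in KO was wide, and with 3 libraries against 3 an exact permutation test cannot give a two-sided p below 0.1.

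Ctsd led the family in each of the 6 libraries, at 4068 ± 502 TPM in WT and 2495 ± 1187 TPM in KO (SD, n = 3 each). Over all 6 libraries the mean levels ran, from high to low, Ctsd 3281, Ctsl 1930, Ctss 1648, Ctsb 1490, Ctsz 667, Ctsh 315, Ctsk 187, Ctsc 168 and Ctsa 149 TPM. Ctsl was above Ctss in 5 of 6 libraries and Ctss above Ctsb in 4 of 6, so the order among these 3 is not fixed across animals. Ctsb was above Ctsz, Ctsz above Ctsh and Ctsh above Ctsk in 6 of 6 libraries. At the low end Ctsk was above Ctsc in 5 of 6 and Ctsc above Ctsa in 4 of 6. Reads on bases shared with exons of other genes, 16.3% of those of Ctsb and 22.6% of those of Ctsa, were not counted. TPM still used the full exon length, so the TPM and share of these genes are understated, and their places in the order are uncertain.

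**Figure D1:**
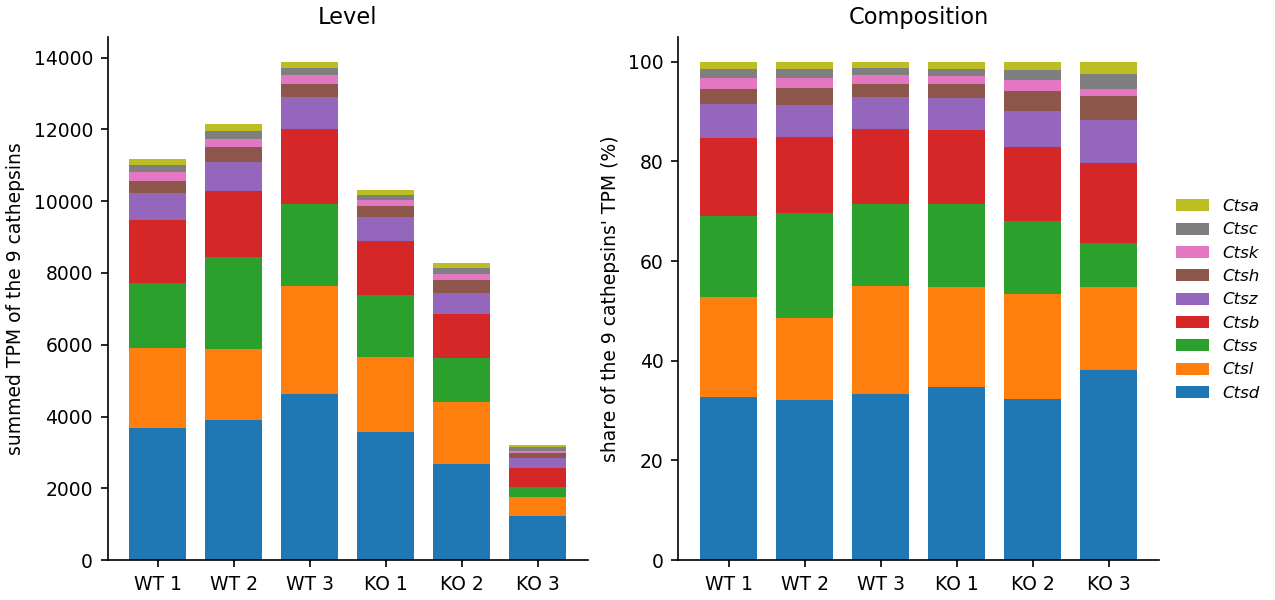
Level and composition of the 9 cathepsins in each library. Left, stacked bars give the summed TPM of the 9 genes; right, the share of each gene in that sum in percent. KO 3 has the lowest sum, 3219 TPM, and in it Ctss takes 8.89% of the sum against 14.7% to 21.1% in the other 5 libraries.

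The makeup of the family varied less than its sum. Ctsb held 14.8% to 16.0% of the summed TPM in all 6 libraries and Ctsd 32.1% to 38.2%. Ctss was the member whose share varied most. It held 16.3%, 21.1% and 16.4% in WT 1, WT 2 and WT 3, then 16.8% in KO 1, 14.7% in KO 2 and 8.89% in KO 3. The share of Ctss overlapped between the groups, with KO 3 the lowest and KO 1 above WT 1 and WT 3. For every one of the 9 shares the 2 groups overlapped, so a difference in makeup was not resolved.

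Between genotypes, all 9 cathepsins had a negative log2 fold change (KO against WT), from -1.03 for Ctss to -0.49 for Ctsh (median -0.70). By edgeR's quasi-likelihood test with Benjamini-Hochberg adjustment over 15937 genes, 0 of the 9 passed an adjusted p of 0.05, and their adjusted p ran from 0.617 to 0.764. Among all genes tested, 0% were called in this way. At an unadjusted edgeR p under 0.05, 1 member, Ctsc, was lower, against 3.98% of all genes tested. DESeq2 called 0 members and 0.422% of the genes for which it gave an adjusted p, and limma-voom called 0 members. A negative log2 fold change was held by 39.1% of all genes tested, whose median was 0.07. In 7 of the 9 members every KO library was below every WT library, an ordering that 8.38% of all genes showed. The opposite ordering was shown by 0 members and by 8.33% of all genes. KO 3 was the lowest library for 9 of 9 members and for 26.2% of all genes. Both traits together, KO 3 lowest and no overlap, were found in 7 members and in 6.45% of all genes.

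**Figure D2:**
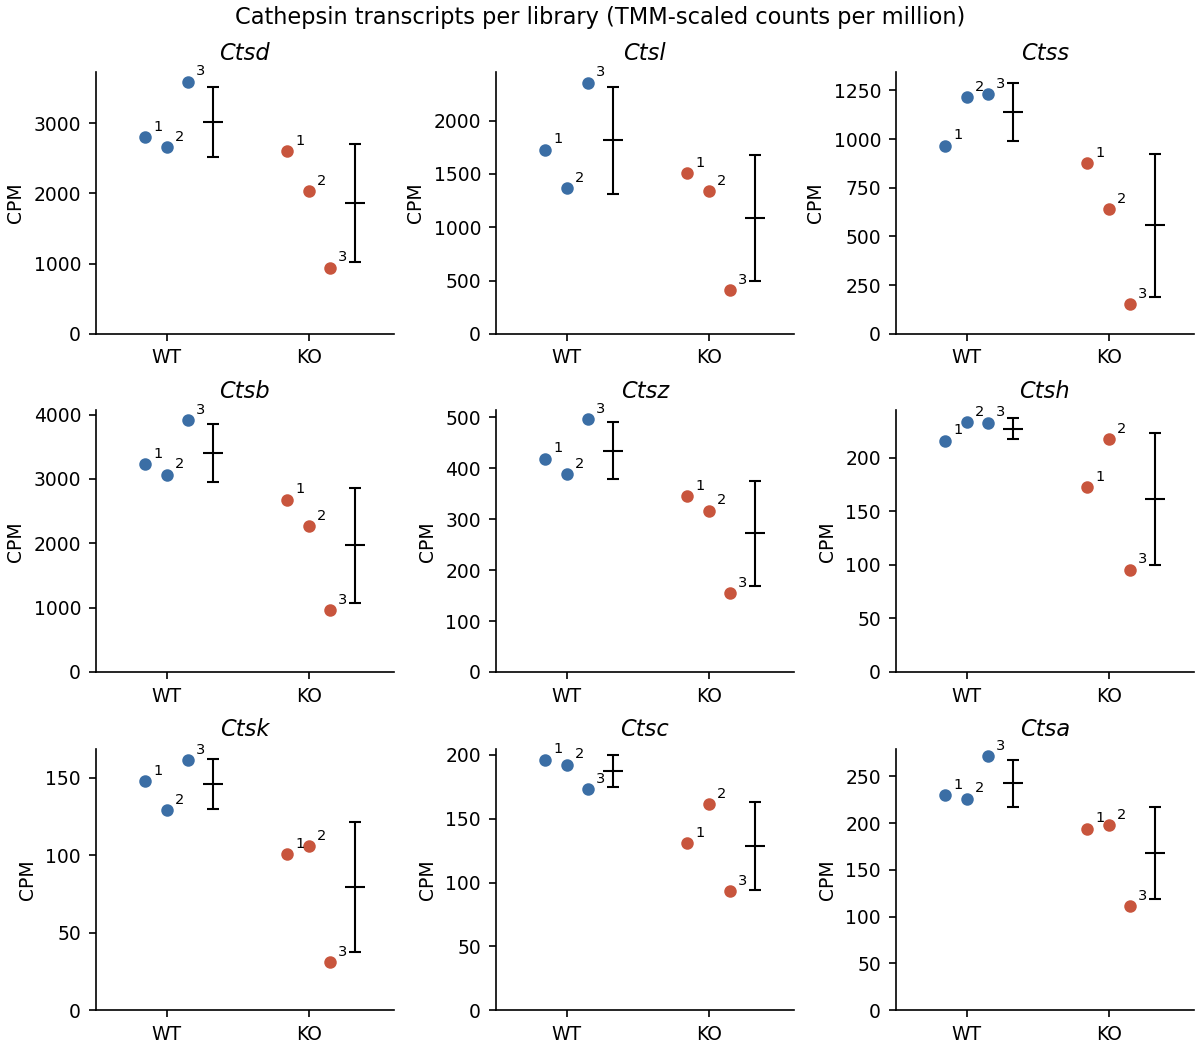
Each panel plots 1 cathepsin, ordered by mean TPM, with the TMM-scaled CPM on the y axis and 1 point per library, numbered by replicate. Bars beside the points are the mean and SD of the 3 libraries of a group. KO 3 is the lowest point in each of the 9 panels, and in 7 panels (all but Ctsl and Ctsh) the 3 KO points lie below the 3 WT points.

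Ctsd (chr7:149561821-149573775 in mm9, minus strand, 9 exons) encodes the aspartic endopeptidase that begins the breakdown of many proteins taken into the lysosome. Its level was 2804, 2664 and 3592 CPM in WT 1, WT 2 and WT 3 and 2599, 2027 and 944 CPM in KO 1, KO 2 and KO 3. The KO libraries were all below the WT libraries, but KO 1 came close to WT 2, and KO 3 was far below KO 2. The log2 fold change was -0.70 (SE 0.40, edgeR adjusted p = 0.699).

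Ctsa (chr2:164658372-164666532, plus strand) encodes the serine carboxypeptidase also called protective protein, which holds beta-galactosidase and neuraminidase in a complex and keeps them stable. Ctsa counts came to 230, 226 and 272 CPM in WT 1, WT 2 and WT 3, and to 194, 198 and 111 CPM in KO 1, KO 2 and KO 3. The groups did not overlap, and KO 1 and KO 2 were nearly level. Its log2 fold change was -0.53 (SE 0.24, edgeR adjusted p = 0.644). Exons of Neurl2 and Pltp on the opposite strand cover 22.6% of the exon bases of Ctsa. Reads on those bases were left out of the count.

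The cysteine endopeptidases, which cut within a chain, were the members with the largest fold changes. Ctss, which cleaves the invariant chain of MHC class II molecules and stays active at neutral pH, stood at 966, 1215 and 1231 CPM in the WT libraries and at 876, 642 and 153 CPM in KO 1, KO 2 and KO 3. All 3 KO libraries were below all 3 WT libraries, and KO 3 held 13.4% of the WT mean. The Ctss means were 1138 ± 149 CPM for WT and 557 ± 369 CPM for KO (SD, n = 3 each). Its fitted level was 2.04-fold lower in KO, with a log2 fold change of -1.03 (SE 0.59, edgeR adjusted p = 0.705).

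Ctsk, the collagen- and elastin-cutting protease best known from osteoclasts, stood at 148, 129 and 161 CPM in the WT libraries and at 101, 106 and 31.1 CPM in KO 1, KO 2 and KO 3. KO 1 and KO 2 lay close together below WT 2, and KO 3 held 21.3% of the WT mean. Its fitted level was 1.84-fold lower in KO (log2 -0.88, SE 0.45, edgeR adjusted p = 0.675). Of the 9 members it had the fewest reads, 789 in KO 3, for which counting error alone is 3.56%, small beside the spread between animals. The genes that flank the pair had small fold changes: Arnt, 1970 bases before Ctsk, was at 0.08 on the log2 scale and Golph3l, after Ctss, at -0.09, and in both the groups overlapped.

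Ctsb (chr14:63741299-63764760, plus strand), an endopeptidase that also removes dipeptides from the end of a chain, had the highest CPM of the family. It stood at 3225, 3067 and 3918 CPM in the WT libraries and at 2681, 2267 and 960 CPM in KO 1, KO 2 and KO 3. The groups did not overlap, and KO 3 was again far below the other 2 KO libraries. The log2 fold change was -0.79 (SE 0.40, edgeR adjusted p = 0.680). Exons of Fdft1 on the opposite strand cover 16.3% of its exon bases.

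For Ctsl (chr13:64464522-64471614, minus strand), a broad endopeptidase of the lysosome, the groups overlapped. The WT libraries held 1728, 1367 and 2357 CPM and the KO libraries 1509, 1338 and 412 CPM in the order KO 1, KO 2 and KO 3, so that KO 1 was above WT 2. The WT libraries themselves spread widely, with a mean of 1817 ± 501 CPM (SD, n = 3). The log2 fold change of -0.74 (SE 0.51, edgeR adjusted p = 0.764) had the largest adjusted p of the 9.

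The 3 remaining members, like Ctsa, trim chains from their ends. Ctsc (chr7:95426603-95459385, plus strand), which activates the serine proteases of leukocyte granules, stood at 196, 192 and 173 CPM in the WT libraries and at 131, 162 and 93.2 CPM in KO 1, KO 2 and KO 3. Its groups did not overlap, and it had the smallest unadjusted edgeR p of the family, 0.0413, with an adjusted p of 0.617 (log2 fold change -0.54, SE 0.21). Ctsz (chr2:174252995-174264493, minus strand), a carboxypeptidase, stood at 419, 388 and 497 CPM in WT and at 345, 317 and 154 CPM in KO 1, KO 2 and KO 3, also without overlap (log2 fold change -0.67, SE 0.32, edgeR adjusted p = 0.657). Ctsh (chr9:89949105-89970933, plus strand), an aminopeptidase, stood at 216, 233 and 233 CPM in WT and at 172, 217 and 95.5 CPM in KO 1, KO 2 and KO 3. KO 2 was just above WT 1 in Ctsh, so its groups overlapped, and its fold change was the smallest of the 9 (log2 -0.49, SE 0.29, edgeR adjusted p = 0.718).

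Without KO 3 the differences were smaller but had the same sign. In that set all 9 log2 fold changes were still negative, from -0.59 for Ctss (SE 0.21) to -0.22 for Ctsh (SE 0.13), with a median of -0.39, against 50.5% of all genes negative and a median of -0.003. KO 1 and KO 2 alone lay below all 3 WT libraries in 7 of 9 members and in 14.6% of all genes. The KO 1 level was 69.0% to 86.1% of the WT mean across the members and the KO 2 level 56.4% to 95.6%, while KO 3 ran from 13.4% for Ctss to 49.8% for Ctsc. Without KO 1 the median was -1.09. Without both WT 2 and KO 3 it was -0.48, all 9 stayed negative, and Ctsk had the largest fold change (log2 -0.59, SE 0.11, edgeR adjusted p = 0.282). In that set of 4 libraries, KO 1 and KO 2 were below WT 1 and WT 3 in 8 of 9 members and in 20.0% of all genes. No member passed the threshold in either set.

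**Figure D3:**
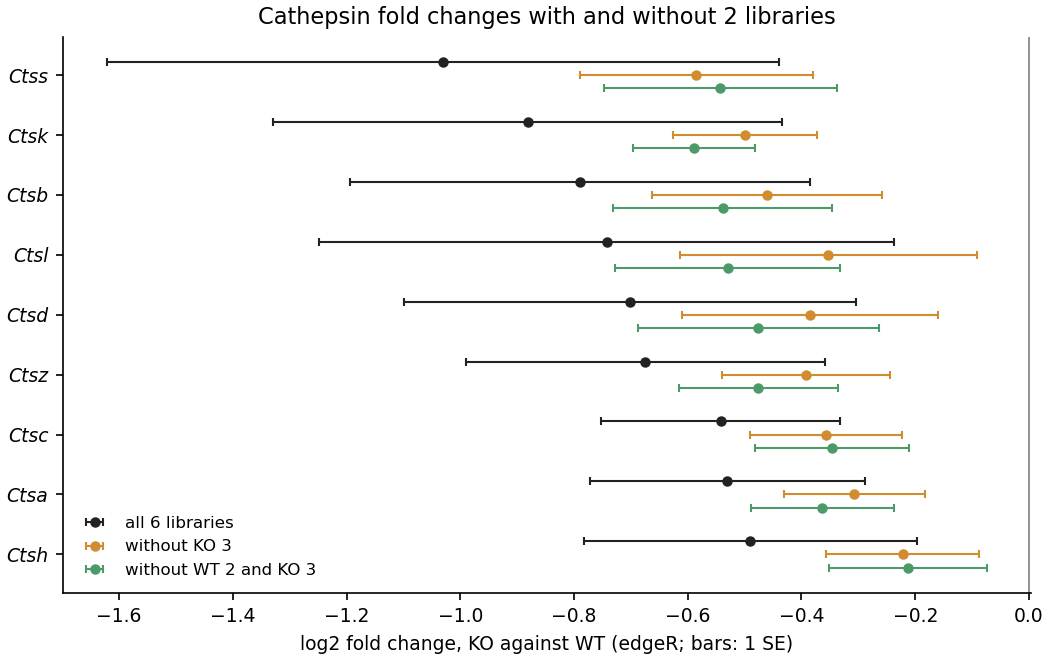
Log2 fold change of each cathepsin, KO against WT, on the x axis, with bars of 1 SE from the edgeR fit, for all 6 libraries, without KO 3, and without WT 2 and KO 3. All points are below 0, and leaving out KO 3 moves Ctss from -1.03 to -0.59.

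The members varied over the 6 libraries in closer and looser pairs. Ctsb and Ctsd were the closest, with a root mean square difference of 0.07 between their log2 CPM after each was centred on its own mean, and Ctsc and Ctss the farthest, at 0.73. Ctsk and Ctss, although neighbours on the chromosome, differed by 0.32, more than Ctsk and Ctsl (0.17).

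By the same measure over 12010 other genes with a mean of at least 5 CPM, the genes whose pattern was most like each member's were found. Closest to Ctsz were Psap (0.05), the precursor of the saposins, Abca1, the cholesterol exporter, and Soat1, which esterifies cholesterol in foam cells. Ctsb was followed by Blnk, Cd37 and Itgb2 (0.06 each), leukocyte genes, and Ctsd by 1810011H11Rik, Litaf and Cd37. The closest to Ctsa were C1qtnf6, Man2b1, a lysosomal mannosidase, and Cmtm7. For Ctsc they were Ripk3, C5ar1 and Fcgr2b, for Ctsh Il18r1, Il13ra1 and Tmem173, and for Ctsl Cd300a, Arhgap25 and Anpep. Ctsk was followed by Cx3cl1 (0.05), Mmp19 and the type I collagen chain Col1a1, and Ctss by Thbs1 (0.09), Hs6st2 and Wfdc17. These values describe 6 libraries of mixed tissue and carry no test.

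Macrophage markers were lower in the same libraries as the cathepsins. Of 20 listed, 17 had negative log2 fold changes, the median being -0.91 (-0.62 without KO 3 and -0.63 without WT 2 and KO 3), and 17 of 20 had every KO library below every WT library. The exceptions were Lyve1 and Cd163, which were higher in all KO libraries (as were 8.33% of all genes), and Mrc1, whose groups overlapped. The list summed to 5985 to 7168 CPM in WT and to 2002 to 4664 CPM in KO, and no marker of the list was at 0. In bulk tissue fewer cells of a type and less RNA per cell cannot be told apart, and the part of macrophage content in the cathepsin values was not tested. For osteoclast markers the summed levels overlapped, at 269 to 401 CPM in WT and 104 to 322 CPM in KO, 6 of 7 tested had negative log2 fold changes, and the defining receptor gene Calcr was at 0 in every library. Their median of -0.32 became -0.96 without KO 1 and -0.15 without KO 3, where 4 of 7 were negative. Of 7 dendritic cell markers 5 had negative values (median -0.47), but the median was -0.05 without WT 1 or KO 3 and -0.71 without WT 3. All 8 smooth muscle markers had positive values (median 0.37), and their median was 0.60 without WT 1, 0.18 without WT 2, 0.13 without KO 2 and 0.62 without KO 3. All 8 adipocyte markers had positive values too (median 0.65), with 1.06 without WT 1 and 0.35 without WT 2. A positive value was also held by 9701 of the 15937 genes tested. None of these markers passed the edgeR threshold, which 0% of all genes tested passed. By DESeq2 1 did, the macrophage gene Aif1 (adjusted p = 0.0337), against 0.422% of the genes for which it gave an adjusted p. Their part in the cathepsin values was not tested.

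Set against the mean log2 level of the 20 macrophage markers in the same library, most cathepsins differed little between the groups. Ctsz relative to the markers was 1.64 ± 0.09 in WT and 1.64 ± 0.11 in KO on the log2 scale (SD, n = 3 each). Ctsd, Ctsb and Ctsl differed by -0.06, -0.16 and -0.16, with overlapping groups, and Ctsc and Ctsh by 0.18 each. Ctsa was 0.18 higher in KO, with no overlap between the groups. Ctss was 2.83, 3.21 and 3.05 in WT, 3.09 and 2.67 in KO 1 and KO 2, and 1.52 in KO 3, so that KO 3 alone lay below the range of the other 5 by a wide margin. Ctsk was also lowest in KO 3, at -0.78 against -0.03 to 0.12 in the other 5. By smaller margins KO 3 was the lowest for Ctsl (2.95 against 3.38 to 3.98), Ctsb (4.17 against 4.49 to 4.72) and Ctsd (4.14 against 4.33 to 4.66). It was narrowly the lowest for Ctsz (1.53 against 1.57 to 1.74), but the highest for Ctsa and Ctsc and neither for Ctsh. The mean of the markers is itself lower in KO, so these ratios describe unequal change and not an absence of change. That mean includes Lyve1 and Cd163, which were higher in all KO libraries (log2 fold changes 1.13 and 0.98), and Mrc1, whose groups overlapped. Ratios to a mean without these genes were not computed, so the small differences and ranks given here may depend on the markers chosen.

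**Figure D4:**
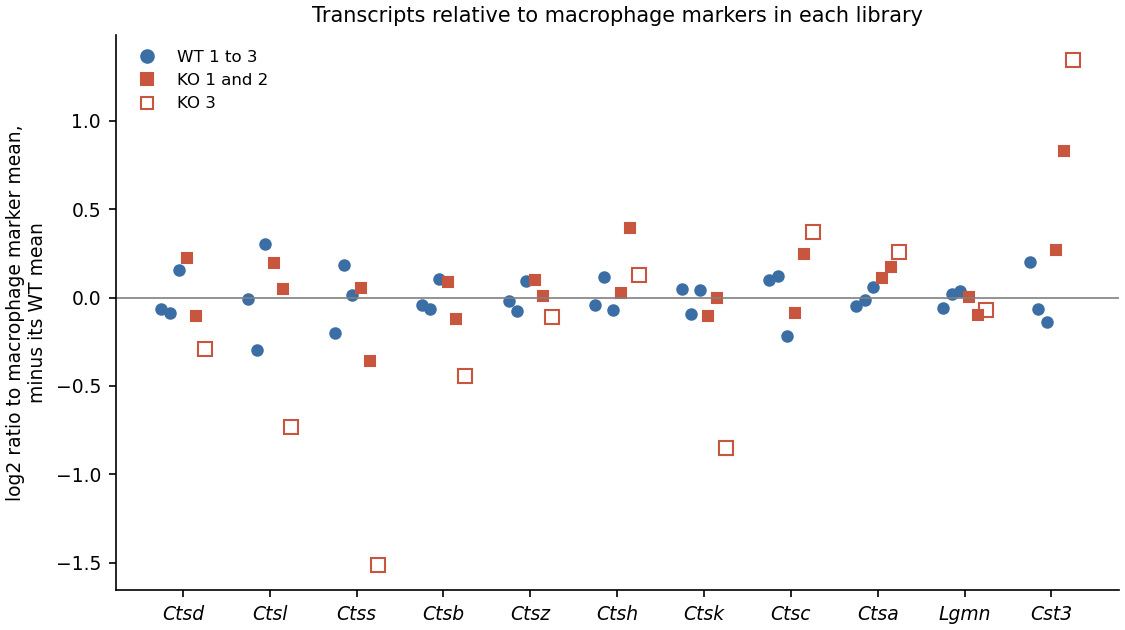
Log2 ratio of each transcript to the mean of 20 macrophage markers in the same library, minus its WT mean, on the y axis, for the 9 cathepsins and for Lgmn and Cst3. The markers include Lyve1 and Cd163, which were higher in all KO libraries. Circles are WT, filled squares KO 1 and KO 2 and open squares KO 3. KO 3 is the lowest point for Ctss and Ctsk, far below the rest, and by smaller margins for Ctsl, Ctsb, Ctsd and Ctsz. The Cst3 ratio is higher in all 3 KO libraries than in WT, while the CPM of Cst3 overlapped between the groups.

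The other cathepsin genes were few and low in these arteries. The groups separated in 0 of the 4 tested, against 8.38% of all genes with KO below and 8.33% with KO above. With 4 genes this count cannot be told from those shares. Of 14 in the table, 9 had no read in any library, Ctsg was too low to test, and 4 were tested. Ctsf, another cysteine cathepsin, stood at 41.1, 34.2 and 34.5 CPM in WT and 35.1, 44.6 and 44.3 CPM in KO 1, KO 2 and KO 3 (log2 fold change 0.18). Ctso stood at 57.7, 37.3 and 51.1 CPM in WT and 36.6, 53.2 and 46.2 CPM in KO (log2 fold change -0.10). In both the groups overlapped and KO 3 was not the lowest library. Ctsw, a cathepsin of cytotoxic lymphocytes, and Ctse were low, at 4.62 ± 1.01 and 1.09 ± 0.62 CPM in WT (SD, n = 3 each), with log2 fold changes of -0.55 and -0.54. Whether the 9 and these 4 differ was not tested.

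Among the inhibitors, Cst3, cystatin C, the abundant secreted inhibitor of cysteine cathepsins, stood at 658, 530 and 573 CPM in WT and at 525, 756 and 572 CPM in KO 1, KO 2 and KO 3. Its groups overlapped, with a log2 fold change of 0.07 (SE 0.19, edgeR adjusted p = 0.929), and KO 3 was close to WT 3. Relative to macrophage markers Cst3 was higher in every KO library, by 0.81 on the log2 scale. That ratio restates the lower marker mean in KO, because Cst3 itself was nearly level, and Ctsf differed likewise by 0.92. Cstb, the stefin that inhibits cathepsins in the cytosol, stood at 57.0, 56.3 and 64.6 CPM in WT and at 43.5, 42.8 and 22.9 CPM in KO (log2 fold change -0.70, SE 0.26, edgeR adjusted p = 0.599). Of the 11 inhibitors tested 10 had negative values (median -0.38), against 39.1% of all genes tested. All KO libraries were below all WT libraries in 2, against 8.38% of all genes. These were Cstb and a gene near the floor, with means of 0.73 CPM in WT and 0.12 CPM in KO.

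Genes that act beside the cathepsins in the lysosome had mostly negative values too. All 10 partner and processing genes tested had one (median log2 fold change -0.33), against 39.1% of all genes. In 7 every KO library was below every WT library, against 8.38% of all genes. Lgmn, the asparaginyl endopeptidase that cleaves procathepsins to their mature chains, stood at 540, 550 and 633 CPM in WT and 428, 389 and 211 CPM in KO (log2 fold change -0.75, SE 0.28, edgeR adjusted p = 0.605). Relative to macrophage markers it differed by -0.05, with all 6 libraries within 0.14. Cd74, the invariant chain cut by Ctss, stood at 492, 716 and 455 CPM in WT and 356, 385 and 284 CPM in KO (log2 fold change -0.70, edgeR adjusted p = 0.587). Ifi30, a thiol reductase of the antigen-loading lysosome, had the largest fold change of the list (log2 -0.83, SE 0.24, edgeR adjusted p = 0.587). The 2 enzymes that Ctsa protects had smaller differences, -0.34 for Glb1 and -0.19 for Neu1, the latter with overlapping groups.

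Among 35 other lysosomal hydrolases 29 had a negative log2 fold change (median -0.42, or -0.23 without KO 3), against 39.1% of all genes. In 17 all KO libraries were below all WT libraries, against 8.38% of all genes. Examples were Npc2, the lysosomal cholesterol carrier (306 ± 17.4 CPM in WT and 215 ± 42.8 in KO, SD, n = 3 each), and the carboxypeptidase Prcp (58.8 ± 5.42 and 38.9 ± 7.73 CPM). Of 19 lysosomal membrane genes 14 were lower (median -0.23), against 39.1% of all genes. In 5 all KO libraries were below all WT libraries, against 8.38%. For the vacuolar ATPase, the proton pump whose acid the cathepsins need, 11 of 17 subunits tested had negative values, with a median of -0.03. The groups separated in 0 of these, against 8.38% of all genes with KO below and 8.33% with KO above. Leaving out 1 library moved that median to between -0.31 (KO 3) and 0.10 (WT 2), on either side of 0. Its summed level was highest in KO 3 (2516 CPM) and WT 2 (2357 CPM), the libraries with neuron transcripts, and without both 17 of 17 were lower with a median of -0.19. The part of nerve tissue in this was not tested.

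The sorting genes were split. Of 15, 10 had negative values, against 39.1% of all genes tested. The median of the 15 was -0.10, and it was -0.16 without KO 1, -0.06 without KO 2 and -0.07 without KO 3. The receptors that carry the enzymes were on the lower side, M6pr at 157 ± 5.19 CPM in WT and 126 ± 16.7 in KO (log2 fold change -0.32) and Igf2r at 463 ± 27.9 and 351 ± 77.2 CPM (-0.40), both without overlap (SD, n = 3 each). Sort1, sortilin, the alternative sorting receptor, was higher in all KO libraries, at 115, 103 and 103 CPM in WT and 124, 138 and 148 CPM in KO (log2 fold change 0.35, SE 0.11, edgeR adjusted p = 0.587), and KO 3 was the highest of the 6. The transcripts of the regulators stayed nearer to each other: Tfeb, Tfe3 and Mitf had log2 fold changes of -0.27, -0.20 and -0.14, all with overlapping groups. The list of 10 had a median of -0.17 (-0.33 without KO 1), and 8 had negative values, against 39.1% of all genes tested. In 2, Rragc (-0.25) among them, every KO library was below every WT library, against 8.38% of all genes. None of these genes passed the edgeR threshold.

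**Figure D5:**
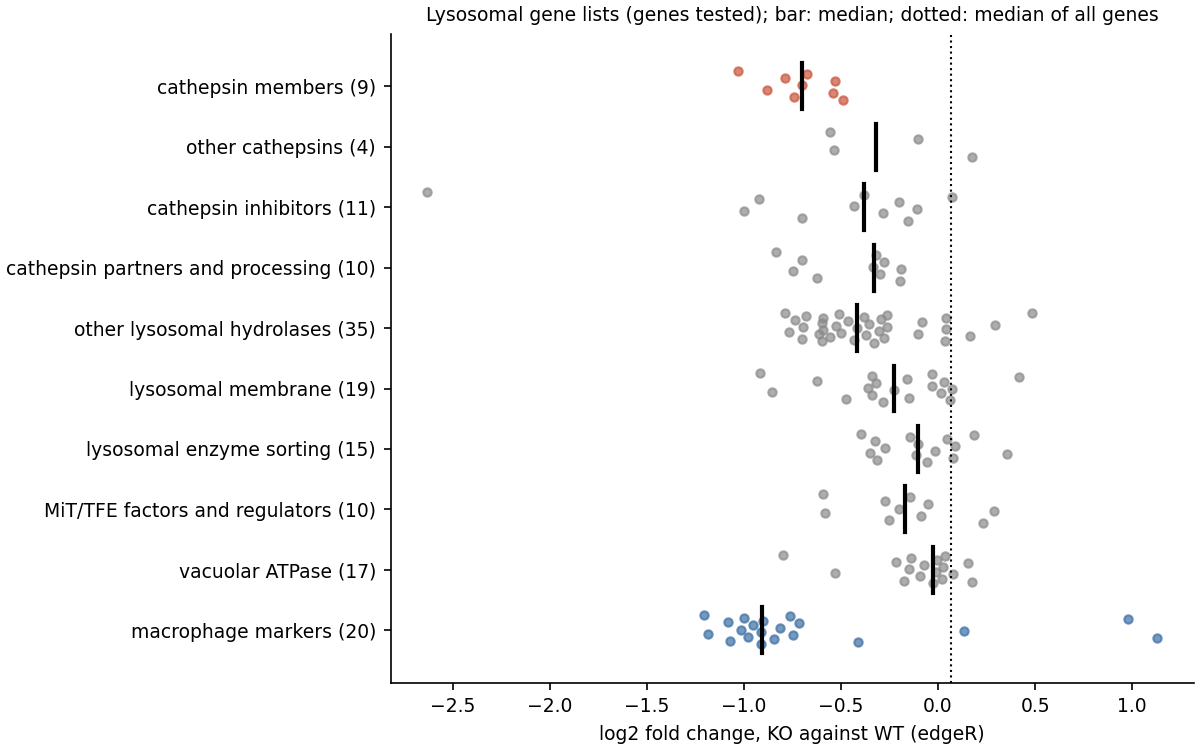
Log2 fold changes, KO against WT, of the genes tested in each list on the x axis, 1 point per gene, with a bar at the list's median and a dotted line at the median of all genes, 0.07. The 9 cathepsins lie between -1.03 and -0.49, and the vacuolar ATPase list is centred at -0.03.

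Of 9 tested transcripts of matrix proteins that cathepsins can cut, 8 had negative log2 fold changes, against 39.1% of all genes tested. Their median was -0.53, and 0 passed the edgeR threshold. The median was -0.81 without KO 2 and -0.24 without KO 3, where 7 of 9 were negative. Fn1, fibronectin, stood at 10772, 9776 and 11589 CPM in WT and 6693, 6533 and 1955 CPM in KO (log2 fold change -1.08, SE 0.51, edgeR adjusted p = 0.661), without overlap. Col2a1, a cartilage collagen, stood at 173, 95.9 and 151 CPM in WT and 40.7, 82.7 and 6.55 CPM in KO. Lama2, a laminin chain of muscle basement membrane, was the exception, higher in all KO libraries (log2 fold change 0.66, SE 0.26, edgeR adjusted p = 0.617). Whether protein levels or enzyme activity differed was not measured.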

How the data were processed

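The values deposited by the authors are raw read counts per gene for 6 libraries, 3 per genotype, and alignment counts per outcome of the counting. Per the file headers, featureCounts 1.4.6-p4 counted reads on the exons of UCSC mm9 genes by gene name. The command set nothing for strand, read pairs or multi-mapping. Reads on exons shared by several genes were left out as ambiguous, 0.347% to 0.448% of the alignments. Multi-mapping alignments were a separate outcome left out of the counts, at 29.9% to 33.4%. STAR 3.0, CASAVA, Subread and DESeq2 are named in the submitters' processing notes. Depth was 22223584 to 26982005 counts per library, groups came from the titles, and no replicate pair agreed within sampling noise.

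Counts were tested with edgeR 4.0.16 in R 4.3.3 (its two-sided quasi-likelihood test, TMM scaling, filterByExpr with a minimum count of 10), with Benjamini-Hochberg adjustment over 15937 genes and a threshold of 0.05. SE came from the F statistic. TPM used the full exon length deposited by the authors, including bases shared with other genes. DESeq2 1.42.0, limma-voom (limma 3.58.1), other scalings and filters, a replicate block and libraries left out were alternatives. The edgeR step was tested on simulated data.

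The members, lists and rules were chosen with earlier results of these data known. Named genes were the members, Col15a1, up to 3 genes per lysosomal list with the smallest unadjusted p and a mean of at least 1 CPM, the other cathepsins, chosen inhibitors, partners, receptors and regulators, and the 3 genes nearest to each member in pattern. Arnt, Golph3l and the single cell type markers were named after their values were seen. Some genes of the lists are not reported by name. Gene coordinates are mm9, and promoter windows are GRCm38.p6, from RefSeq.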

Additional observations from a re-analysis of the deposited data

How the results depend on the processing

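In each of the 16 alternatives run, all 9 cathepsins kept a negative log2 fold change and 0 passed the threshold, with adjusted p from 0.282 to 1.00. Ctss ranged from -1.59 (without KO 1) to -0.54 (without WT 2 and KO 3), and the members' median from -1.09 to -0.39 with 1 library left out. The whole table gave 0 calls in edgeR (1275 genes at an unadjusted p under 0.05) and in limma-voom but 63 in DESeq2 (33 higher, 30 lower), and 1 gene, lower, without WT 2 and KO 3; the cause was not tested. With 1 library left out the list medians ran from -0.162 to -0.0576 for sorting genes, -0.33 to -0.12 for MiT/TFE factors, -0.31 to 0.10 for the vacuolar ATPase and -2.50 to 2.93 for neuron markers. Other scalings in edgeR changed no sign of a list's median, moved the median of all genes by less than 0.1 and put the share of genes with a negative log2 fold change at 39.1% to 46.9%. Correlations of deviations between same-numbered libraries were 0.40, -0.64 and -0.55. The highest of any pair was 0.74, between WT 2 and KO 3, the libraries with neuron transcripts. Whether the numbers pair animals was therefore not resolved. With the replicate block 0 genes were called and Ctss stood at -1.32. The lowest count of a member was 789; the part of depth was not tested.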
